A study of Arabidopsis thaliana with 12 samples.

Results

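The Casparian strip and suberin genes described here are 9 of the 33607 genes in each deposited table, listed by name and locus, with no threshold on a measured value. They are the membrane scaffold genes CASP1 (AT2G36100), CASP2 (AT3G11550), CASP4 (AT5G06200) and CASP5 (AT5G15290), the wall genes ESB1 (AT2G28670) and PER64 (AT5G42180), the regulator MYB36 (AT5G57620), and the suberin genes GPAT5 (AT3G11430) and CYP86A1 (AT5G58860). All 9 were found in all 4 tables. The series measured polyadenylated RNA of 12 Arabidopsis thaliana samples in 6 groups of 2. The groups were IMA1 OE on full medium, IMA1 OE on Fe-deficient medium and EYFP OE on full medium, each as roots and as whole rosettes of Columbia-0 plants. IMA1 OE plants carried the open reading frame of IMA1 (AT1G47400), a gene for a small peptide of the Fe deficiency response, and EYFP OE plants carried the gene of a fluorescent protein as the transgenic control. Both transgenes were driven by the 35S promoter, which is active in most tissues, and each was represented by 1 line.

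Seedlings of all groups were 10 days on full medium with 1.5% sucrose in continuous light, and were sampled 72 hours after transfer either to full medium again or to Fe-free medium holding 100 µM ferrozine, which binds Fe. EYFP OE plants on Fe-deficient medium were not analysed here, so line and medium cannot be told apart in the comparisons of Fe-deficient IMA1 OE plants. The EYFP OE libraries are the same in both comparisons of a tissue. Nothing in the labels says that the 2 samples of a group came from separate cultures, so p-values measure the spread between these samples, which may be technical.

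The Casparian strip is a ring of lignin in the walls of the root endodermis that seals the path between cells, so that solutes reach the vascular tissue through the endodermal cells. CASP proteins form a membrane domain that marks where the strip is built, ESB1, a dirigent domain protein, and PER64, a peroxidase, act in laying down its lignin, and the transcription factor MYB36 is needed for the expression of CASP, ESB1 and PER64 genes. Older endodermal cells are then coated with suberin, a polyester whose amount is known to respond to nutrient supply, Fe included. GPAT5, an acyltransferase, and CYP86A1, a fatty acid hydroxylase, make its building blocks.

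The values are normalized expression as the authors deposited it, under the name TMM and with no unit. The lowest values in each table fell with gene length, so the values were read as scaled by length. The depth of the libraries is unknown. AT1G47400, the overexpressed gene, had 410.0 and 366 in IMA1 OE roots on full medium and 322 and 331 in Fe-deficient IMA1 OE roots, against 6.71 and 1.96 in EYFP OE roots. Summed levels of 6 marker lists for other cell types were also compared, and none of their genes passed the limma threshold in roots. The summed level of the green tissue markers was 218 and 328 in IMA1 OE roots on full medium, against 491 and 402 in EYFP OE roots. It was 197 and 286 in Fe-deficient IMA1 OE roots, against 493 and 403 in EYFP OE roots. The groups did not overlap in either comparison, while those of the other 5 lists overlapped in both. In rosettes the green tissue sums were 26443 to 28665 and the root cap sums at most 0.16, and SCR, a regulator of the endodermis, was expressed in both tissues. Of the 5 green tissue markers 3 had lower means in IMA1 OE roots on either medium, and CA1 and GLK1 were at 1 or below in every root library. In the authors' deposited table RBCS1A and LHCB1.3, of this list, had p-values of 0 in both root comparisons, with log2 fold changes of -0.57 and -0.80 on full medium and -0.82 and -0.96 on Fe-deficient medium. The part of the green tissue difference in the results was not tested.

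On RefSeq build TAIR10.1 the strip genes are CASP1 at chr2:15159591-15160799 on the minus strand, CASP2 at chr3:3638178-3639348 on the plus strand, CASP4 at chr5:1877134-1878324 on the plus strand and CASP5 at chr5:4967011-4968092 on the plus strand. The wall genes are ESB1 at chr2:12300265-12302358 on the minus strand and PER64 at chr5:16852628-16854224 on the plus strand, and the regulator is MYB36 at chr5:23334767-23336632 on the plus strand. The suberin genes are GPAT5 at chr3:3595694-3597952 on the plus strand and CYP86A1 at chr5:23765791-23768111 on the minus strand. Each gene has 2 to 4 exons, and CASP1, CASP5, ESB1 and PER64 overlap a neighbouring gene in the annotation.

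The promoters of the least and the most variable CASP gene across the root libraries are shown for reference. They are the 250 bases before the annotated start on the gene's own strand, 5′ to 3′, from the same build, which was matched by locus because the deposited tables hold no coordinates. Capitals mark the MYB-type motif ACCNAAC, searched on both strands, which reads GTTTGGT where it lies on the other strand.
CASP1 (chr2:15160800-15161049, minus strand): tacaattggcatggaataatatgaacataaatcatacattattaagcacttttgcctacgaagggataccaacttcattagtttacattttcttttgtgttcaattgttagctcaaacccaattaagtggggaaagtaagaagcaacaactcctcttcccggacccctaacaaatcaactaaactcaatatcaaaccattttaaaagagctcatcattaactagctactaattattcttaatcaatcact
CASP5 (chr5:4966761-4967010, plus strand): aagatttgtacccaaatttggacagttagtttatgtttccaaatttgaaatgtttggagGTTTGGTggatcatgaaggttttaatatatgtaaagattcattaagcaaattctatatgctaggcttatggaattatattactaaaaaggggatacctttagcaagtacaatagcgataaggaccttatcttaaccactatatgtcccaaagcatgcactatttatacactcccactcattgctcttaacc
The motif was in the promoters of CASP5 and ESB1, 2 of the 9, against 14.5% of 27437 promoters of this length. The TTGAC motif, also searched on both strands, was in 3 of the 9, against 44.9% of all promoters. The letters TATAAA, again searched on both strands, were in 6 of the 9, against 47.4%. In CASP5 the match lies on the other strand and reads TTTATA as printed. The motifs were searched separately, and overlaps between them were not removed. A match is a description of these letters only.

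None of the 9 genes passed the test in IMA1 OE roots on either medium. Of all 19741 genes tested on full medium 0.0355% passed the threshold, an adjusted p under 0.05 from limma with Benjamini-Hochberg adjustment over all tested genes. On Fe-deficient medium 0.920% of 19673 tested genes passed it. AT1G47400, the overexpressed gene, missed it on full medium, with a log2 change of 6.35 and an adjusted p from limma of 0.076. A gene that misses the threshold there is therefore not shown to be unchanged. The fit and its intervals take no account of library number. An unadjusted p under 0.05 was reached in it by 0 of the 9 genes on either medium, against 4.22% and 9.14% of all tested genes. With library number added to the fit, 1 of the 9 reached it on each medium. In these bulk samples fewer cells of a type and less RNA per cell cannot be told apart. All log2 changes are on the log2(value + 1) scale, which understates changes of low genes.

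MYB36, the regulator, had 15.9 and 18.0 in IMA1 OE roots on full medium, against 16.03 and 15.2 in EYFP OE roots. The IMA1 OE and EYFP OE ranges overlapped, and the log2 change was 0.11 with a 95% interval of -0.13 to 0.35. On Fe-deficient medium IMA1 OE roots had 15.5 and 17.4, against 15.8 and 14.9 in EYFP OE roots. This comparison gave 0.10, with an interval of -0.13 to 0.32, and an adjusted p from limma of 0.824.

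CASP1, the most abundant of the 4 CASP scaffold genes, had 80.4 and 79.4 in IMA1 OE roots on full medium, against 79.1 and 78.7 in EYFP OE roots. Both IMA1 OE values lay above both EYFP OE values, by a small margin, and the log2 change was 0.02 with a 95% interval of -0.13 to 0.17. On Fe-deficient medium IMA1 OE roots had 82.8 and 74.0, against 78.7 and 78.3 in EYFP OE roots, and the log2 change was -0.0036 with an interval of -0.19 to 0.19. That interval spans folds of 0.875 to 1.14.

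CASP2 had 34.9 and 38.2 in IMA1 OE roots on full medium, against 34.9 and 33.6 in EYFP OE roots. On Fe-deficient medium it had 36.7 and 32.5 in IMA1 OE roots, against 34.5 and 33.1 in EYFP OE roots. The groups overlapped on both media, and the log2 changes were 0.09 (95% interval -0.11 to 0.29) and 0.03 (-0.18 to 0.24). CASP4 had 21.4 and 19.1 in IMA1 OE roots on full medium, against 20.9 and 21.4 in EYFP OE roots. On Fe-deficient medium it had 22.3 and 17.6 in IMA1 OE roots, against 20.5 and 21.0 in EYFP OE roots. The second IMA1 OE library was the lowest on both media, and the log2 changes were -0.06 (-0.28 to 0.15) and -0.07 (-0.38 to 0.25).

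CASP5 was the lowest of the 4 and its libraries split by number. It had 5.0 and 1.45 in IMA1 OE roots on full medium and 5.39 and 1.51 on Fe-deficient medium, against 3.57 and 1.10 in EYFP OE roots. Library 1 was higher than library 2 by 3.45 times, 3.57 times and 3.25 times. In EYFP OE roots of the Fe-deficient table the values were 3.46 and 1.05. The spread inside each group was larger than the difference between groups, and the log2 changes were 0.31 on full medium (95% interval -1.17 to 1.78) and 0.41 on Fe-deficient medium (-1.03 to 1.84). The limma adjusted p on Fe-deficient medium was 0.890. AT5G15300, which overlaps CASP5 in the annotation, had 1.24 and 1.05 in IMA1 OE roots on full medium, against 1.11 and 1.04 in EYFP OE roots. On Fe-deficient medium it had 1.19 and 0.94 in IMA1 OE roots, against 1.06 and 1 in EYFP OE roots. Library 1 of AT5G15300 was the higher one in each pair, by far less than in CASP5.

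ESB1 had 42.22 and 42.26 in IMA1 OE roots on full medium, against 37.9 and 39.6 in EYFP OE roots. Both IMA1 OE values lay above both EYFP OE values, the log2 change was 0.12 with a 95% interval of -0.04 to 0.28, and the adjusted p from limma was 1. On Fe-deficient medium it had 43.3 and 39.3 in IMA1 OE roots, against 37.7 and 39.5 in EYFP OE roots. Here the groups overlapped and the log2 change was 0.09 (-0.10 to 0.29). PER64 had 44.6 and 41.5 in IMA1 OE roots on full medium and 42.5 and 39.4 on Fe-deficient medium, against 43.3 and 42.0 in EYFP OE roots of the first table and 43.0 and 41.7 of the second. Its groups overlapped, with log2 changes of 0.01 (-0.17 to 0.19) and -0.05 (-0.22 to 0.13). PER64 overlaps AT5G42190, which had 74.97 to 87.35 in the root libraries, and the counting method is not given in the sources used here.

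For the 6 Casparian strip genes other than CASP5, the 95% intervals together ran over folds of 0.824 to 1.28 on full medium and 0.770 to 1.25 on Fe-deficient medium. These intervals are for single genes and are not adjusted for their number.

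GPAT5 had 9.87 and 10.7 in IMA1 OE roots on full medium, against 12.1 and 10.7 in EYFP OE roots. The ranges stood apart only at the second decimal, 10.65 in IMA1 OE against 10.71 in EYFP OE, and the log2 change was -0.14 (95% interval -0.39 to 0.12). On Fe-deficient medium it had 10.9 and 11.8 in IMA1 OE roots, against 11.9 and 10.5 in EYFP OE roots, and the log2 change was 0.01 (-0.24 to 0.27). CYP86A1 had 47.5 and 66.7 in IMA1 OE roots on full medium, against 67.1 and 77.3 in EYFP OE roots. The IMA1 OE libraries averaged 57.1 ± 13.6 and the EYFP OE libraries 72.2 ± 7.23 (SD, n = 2 each), and the log2 change of -0.35 (-0.81 to 0.11) did not pass the threshold, with an adjusted p from limma of 1. Without IMA1 OE replicate 1 it was -0.11, and without IMA1 OE replicate 2 it was -0.59. On Fe-deficient medium it had 61.1 and 76.0 in IMA1 OE roots, against 67.0 and 77.5 in EYFP OE roots, and the log2 change was -0.08 (-0.41 to 0.25).

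**Figure D1:**
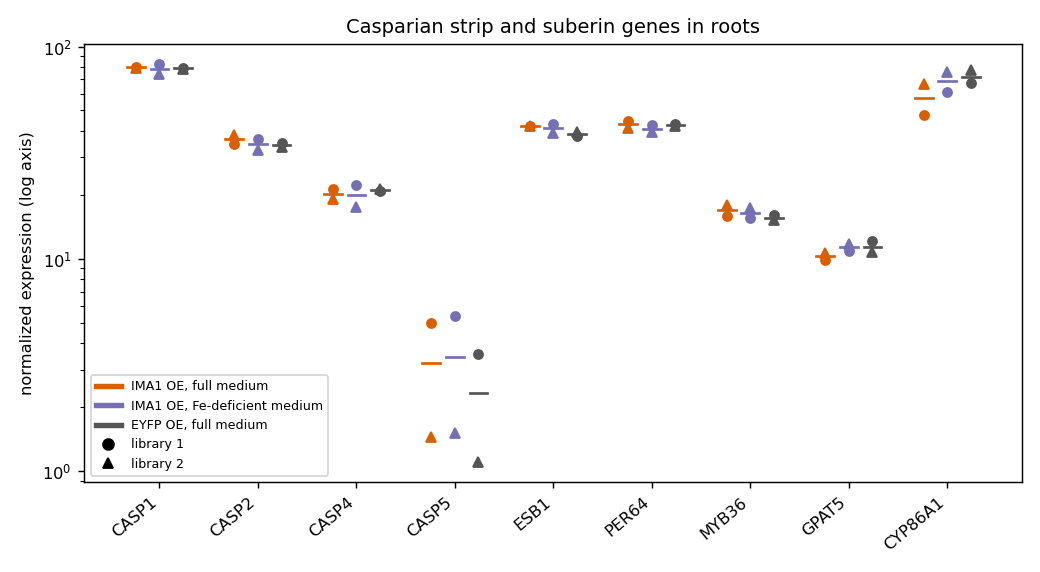
Normalized expression of the 9 genes in the root libraries on a log axis, with circles for library 1, triangles for library 2 and bars for group means; EYFP OE values are those of the table for full medium. The groups lie close together for most genes, CASP5 splits by library number in every group, and CYP86A1 has its lowest value, 47.5, in an IMA1 OE library on full medium.

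On full medium 4 of the 9 genes had groups that did not overlap, against 30.0% of all tested genes. CASP1 and ESB1 were the 2 with higher IMA1 OE values and GPAT5 and CYP86A1 the 2 with lower ones, against 13.8% and 16.2% of all genes. On Fe-deficient medium 0 of the 9 did, against 39.4%. The median log2 change of the 9 genes was 0.02 on full and 0.01 on Fe-deficient medium, and that of all tested genes -0.0098 on full medium and -0.02 on Fe-deficient medium. In the authors' deposited table the p-values of the 9 genes in roots were 0.18 or more, the lowest being that of CYP86A1 on full medium, and 0.446% of all genes had a p under 0.05 there, against 1.01% in the table for Fe-deficient medium.

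**Figure D2:**
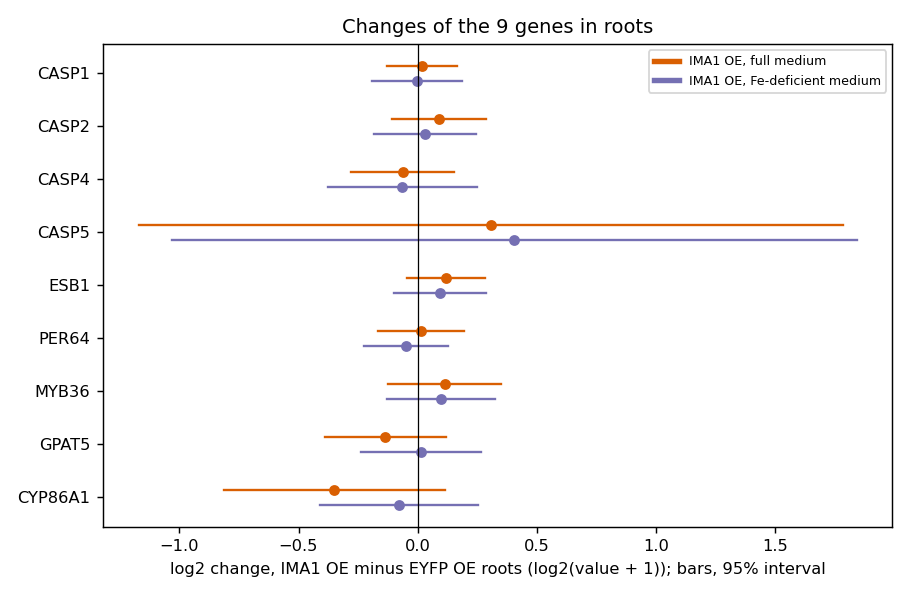
Log2 change in IMA1 OE roots minus EYFP OE roots of each of the 9 genes, on full and on Fe-deficient medium, with bars for 95% intervals from limma. Every interval includes 0; those of CASP5 are the widest, from -1.17 to 1.78 on full medium.

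Across the 6 root libraries CASP1 had a coefficient of variation of 3.69%, from 73.95 to 82.84 with a median of 79.25. PER64 varied by 4.16%, ESB1 by 5.16%, CASP2 by 5.90%, MYB36 by 6.79%, GPAT5 by 7.34% and CASP4 by 8.55%. The median over 15471 genes with a mean of at least 5 was 6.96%. CYP86A1 and CASP5 varied more, by 16.6% and 63.6%, and CASP5 ran from 1.10 to 5.39. CASP5 had group means of 2.335 to 3.45, so it is not among the genes behind that median. The 6 libraries span all root groups and come from separately normalized tables. In each group library 1 of CYP86A1 was the lower one, at 0.712, 0.803 and 0.868 times library 2 in IMA1 OE on full medium, IMA1 OE on Fe-deficient medium and EYFP OE.

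**Figure D3:**
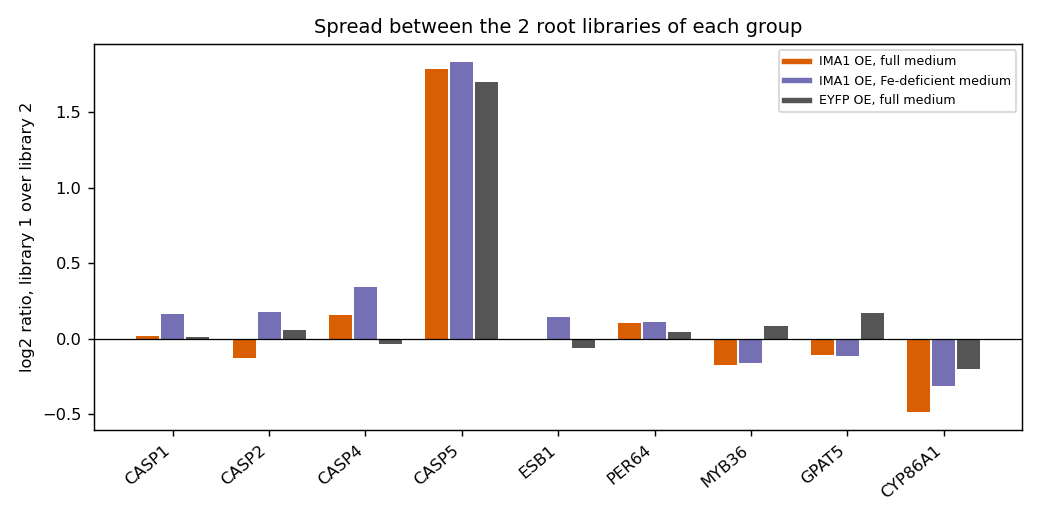
Log2 ratio of library 1 over library 2 in each root group for the 9 genes. CASP5 is higher in library 1 in all 3 groups, CYP86A1 is lower in library 1 in all 3 groups, and of the other genes CASP4 has the largest ratio, 0.34 in IMA1 OE on Fe-deficient medium.

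In order of level in EYFP OE roots the genes were CASP1, CYP86A1, PER64, ESB1, CASP2, CASP4, MYB36, GPAT5 and CASP5. Neighbours in this order did not overlap in EYFP OE roots. In IMA1 OE roots PER64 and ESB1 overlapped on both media, and CASP1 and CYP86A1 overlapped on Fe-deficient medium. The 4 CASP coding sequences shared 55.1% to 79.8% of their aligned bases, CASP2 and CASP4 the most, and the longest identical stretch was 20 bases.

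Other genes of the pathway were followed in lists of 18 for the strip and 21 for suberin. None of either passed the threshold in roots on either medium. On full medium 1 of the 18 strip genes and 3 of the 21 suberin genes had an unadjusted p under 0.05, against 4.22% of all genes. On Fe-deficient medium these were 3 and 2, against 9.14%. The median log2 change of the strip list was 0.03 on full and -0.04 on Fe-deficient medium, and that of the suberin list -0.13 and -0.06. On full medium 17 of 21 suberin genes were below 0, 81%, against 53.9% of all tested genes. On Fe-deficient medium 14 were, 66.7%, against 55.2%. Both IMA1 OE values lay below both EYFP OE values for 8 of the 21 suberin genes on full medium, against 16.2% of all genes. On Fe-deficient medium they did for 5, against 21.6%. For the strip list these were 3 and 5 of the 18, against the same shares. Both IMA1 OE values lay above both EYFP OE values for 3 strip genes on each medium. They did for 0 suberin genes on full medium and 1 on Fe-deficient medium. Of all tested genes 13.8% did on full medium and 3494 of 19673 on Fe-deficient medium. Genes of a list were read in the same libraries, so they are not separate measurements of a change. The lists were chosen with earlier results of these data known.

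FAR5, a fatty acyl reductase that makes alcohols of suberin, had 31.9 and 39.9 in IMA1 OE roots on full medium, against 46.3 and 48.6 in EYFP OE roots. On Fe-deficient medium it had 32.5 and 36.9 in IMA1 OE roots, against 46.1 and 48.4 in EYFP OE roots. The IMA1 OE values lay below the EYFP OE values on both media, with log2 changes of -0.40 (SE 0.12) and -0.44 (SE 0.08), and adjusted p from limma of 0.972 and 0.157. MYB107, a transcription factor of suberin genes, had 1.69 and 2.09 in IMA1 OE roots on full medium, against 3.14 and 2.67 in EYFP OE roots. AT1G74460, a GDSL-like lipase, had 55.4 and 61.6 in IMA1 OE roots on full medium, against 73.7 and 70.2 in EYFP OE roots. The log2 changes were -0.44 for MYB107 and -0.29 for AT1G74460. On Fe-deficient medium MYB107 had 2.96 and 2.61 in IMA1 OE roots, against 3.05 and 2.58 in EYFP OE roots, a log2 change of -0.01 with overlapping groups. AT1G74460 had 61.8 and 58.3 in those IMA1 OE roots, against 73.4 and 69.97 in EYFP OE roots, a change of -0.25. MYB41, another transcription factor of suberin genes, had 3.32 and 1.99 in Fe-deficient IMA1 OE roots, against 5.54 and 2.81 in EYFP OE roots, and FAR1, another reductase, had 23.0 and 23.9 in those IMA1 OE roots, against 25.6 and 32.0 in EYFP OE roots. MYB41 overlapped and FAR1 did not, with log2 changes of -0.47 and -0.28. On full medium MYB41 had 5.79 and 2.39 in IMA1 OE roots, against 5.70 and 2.91 in EYFP OE roots, a log2 change of -0.09 with overlapping groups, and the change of FAR1 was -0.28.

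Of the strip list, AT1G61590, annotated as a protein kinase, had 34.0 and 26.7 in IMA1 OE roots on full medium and 32.9 and 28.8 on Fe-deficient medium, against 24.3 and 25.1 in EYFP OE roots of the first table and 24.1 and 24.9 of the second. Its log2 changes were 0.28 and 0.32, with an adjusted p from limma of 0.343 on Fe-deficient medium. AT2G16385 had 17.1 and 14.95 in Fe-deficient IMA1 OE roots, against 13.1 and 9.68 in EYFP OE roots, a log2 change of 0.47. It had 14.8 and 12.9 on full medium, against 13.5 and 9.98 in EYFP OE roots, a change of 0.23 with overlapping groups. RCI3 (AT1G05260), a peroxidase, had 174 and 160.1 in Fe-deficient IMA1 OE roots, against 190.4 and 196 in EYFP OE roots, a log2 change of -0.21. AT1G44970, a peroxidase superfamily gene, had 12.8 and 21.4 in IMA1 OE roots on full medium, against 18.7 and 21.6 in EYFP OE roots, a log2 change of -0.26 with overlapping groups. In Fe-deficient IMA1 OE roots it had 16.1 and 18.3, against 18.4 and 21.3 in EYFP OE roots, a change of -0.20 with groups that did not overlap.

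**Figure D4:**
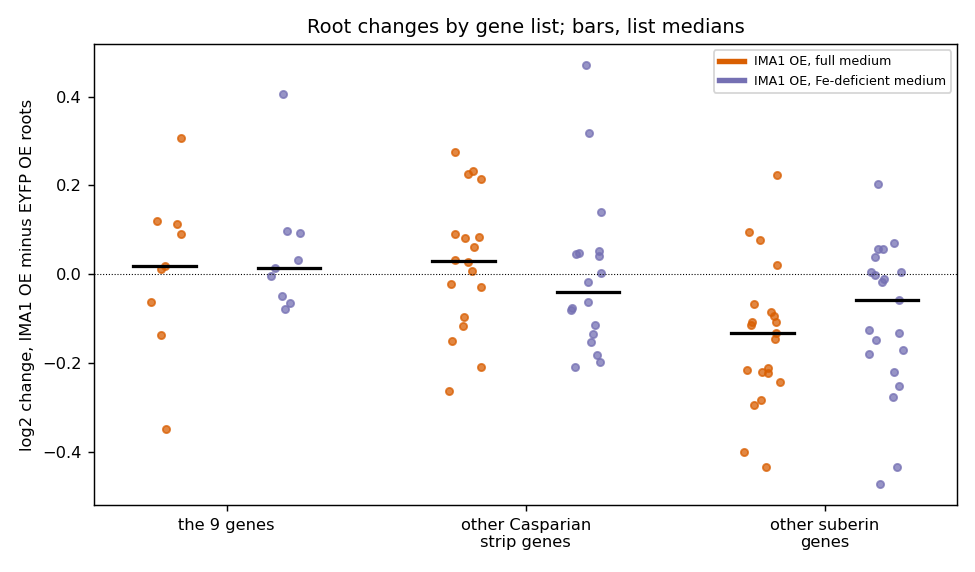
Log2 change in IMA1 OE roots minus EYFP OE roots for the 9 genes, the 18 other Casparian strip genes and the 21 other suberin genes, with bars for list medians. The suberin list has its median at -0.13 on full medium, and no gene in any list passed the threshold.

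In rosettes the 9 genes were far lower and only ESB1 and CYP86A1 reached the level needed for a test, which was 1 or more in 2 or more of the 4 libraries. Levels of the tissues come from separately normalized tables, so they are a description with no test. In EYFP OE plants CASP1 had a mean of 78.9 in roots and 0.74 in rosettes, PER64 42.6 in roots and 0.145 in rosettes, and ESB1 38.8 in roots and 1.945 in rosettes. The log2 difference of roots minus rosettes ran from 1.71 for CASP5 to 5.52 for CASP1, an order that depends on the pseudocount of 1, since most rosette values lie below it. It was above 1 for 9 of the 9 genes, for 14 of the 18 other strip genes and for 20 of the 21 other suberin genes, against 28.8% of 19587 genes with root expression. The median of the 9 was 4.12 in EYFP OE plants, against 0.57 for all of these genes. In IMA1 OE plants it was 4.25 on full and 4.05 on Fe-deficient medium.

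**Figure D5:**
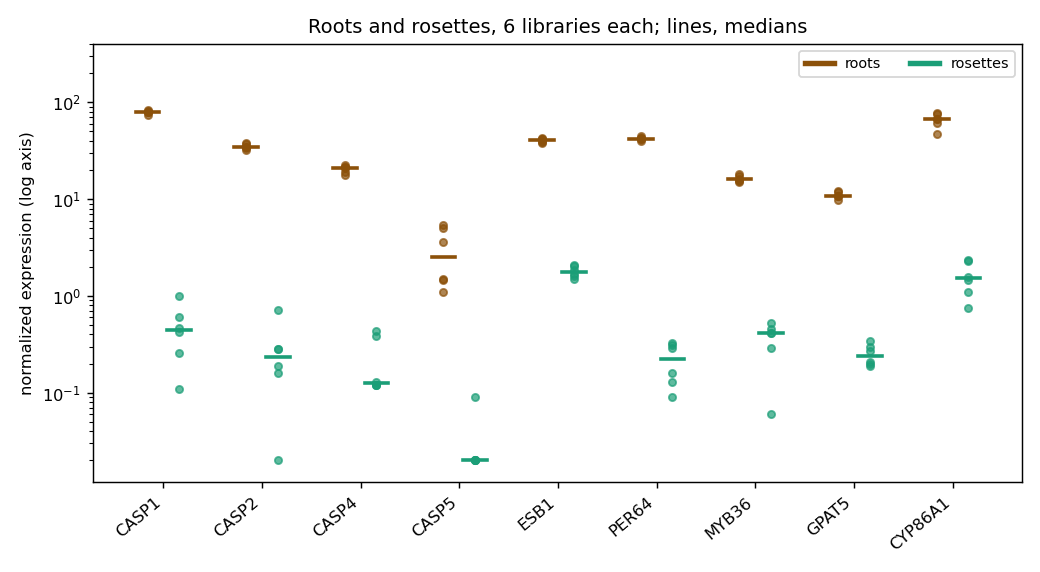
Normalized expression of the 9 genes in the 6 root libraries and the 6 rosette libraries on a log axis, with bars for medians. No rosette value reaches a root value of the same gene, and in rosettes ESB1 and CYP86A1 are the highest.

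ESB1 had 1.67 and 1.51 in IMA1 OE rosettes on full medium, against 2.03 and 1.86 in EYFP OE rosettes, a log2 change of -0.19 (95% interval -0.60 to 0.23). CYP86A1 had 0.76 and 1.47 in IMA1 OE rosettes, against 1.09 and 2.28 in EYFP OE rosettes, a change of -0.33 (-1.13 to 0.47). Both ESB1 values of IMA1 OE lay below both of EYFP OE, and the CYP86A1 groups overlapped. The groups did not overlap for 31.6% of the 18731 tested genes. Neither gene passed the threshold, which 0.0107% did, or had an unadjusted p under 0.05, which 5.43% had. In the second rosette table the IMA1 OE headings read as Fe-sufficient, and the columns were taken as Fe-deficient from the sample labels. With that doubt, ESB1 had 2.07 and 1.62 in IMA1 OE rosettes on Fe-deficient medium, against 1.98 and 1.83 in EYFP OE rosettes. CYP86A1 had 1.58 and 2.34 in these IMA1 OE rosettes, against 1.07 and 2.25 in EYFP OE rosettes. The groups of both genes overlapped, against 33.2% of 18691 genes whose groups did not. Neither had an adjusted p under 0.05, as 0.00535% did, or an unadjusted one, as 5.17% did. The other 7 genes had values of 0.02 to 1.01 in the 6 rosette libraries and were not tested. CASP1 ran from 0.11 to 1.01, CASP2 from 0.02 to 0.71, CASP4 from 0.12 to 0.43 and CASP5 from 0.02 to 0.09. PER64 ran from 0.09 to 0.33, MYB36 from 0.06 to 0.53 and GPAT5 from 0.19 to 0.34. The number of reads behind these values is unknown, and the lowest of them, 0.02, may stand for no reads.

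As a description over the 6 root libraries, the genes whose profile was most like the mean of GPAT5 and CYP86A1 were PDIL5-4, TUB4, AT5G05570, AT3G58470 and PBE1, with Pearson correlations of 0.999 to 0.983. That mean spanned 0.45 on the log2 scale. CYP86A1 weighs more in it, with a log2 SD of 0.25 over these libraries, against 0.097 for GPAT5. The libraries come from separately normalized tables. The points come in groups of 2 libraries, and 173 of 15469 genes had a correlation over 0.9.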

How the data were processed

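Polyadenylated RNA of 12 samples was sequenced with a stranded kit, per the labels' protocols, with RIN scores of 9.8 to 10 for roots and 8.3 to 8.7 for leaves. The submitters' processing notes name bcl2fastq 1.8.4, Trimmomatic 0.35, Bowtie2 2.0.6, edgeR 3.12.1, limma 3.26.9 and the build TAIR10, without roles; counting and annotation are not given in the sources used here. The authors deposited 4 tables of a normalized expression signal, named TMM, with 4 library columns each, and 0 per-sample columns were left unused. Per the file headers they also hold a Z-test p-value and a log2 fold change from the authors. The columns of a table have nearly the same distribution, and top genes can hold equal values: RBCS1A had 12116 and 11140 in IMA1 OE rosettes on full medium and the same values in EYFP OE rosettes.

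Values were analysed as log2(value + 1) within each table, since tables were normalized separately. Genes at 1 or more in 2 or more of the 4 libraries were fitted with limma 3.58.1 in R 4.3.3 (lmFit, eBayes with trend), two-sided, and p-values were adjusted by Benjamini-Hochberg over all tested genes and a threshold of 0.05. The fit was tested on data simulated with independent libraries and with variances from the same fit. Such data cannot show how it behaves on these libraries. Tissues were compared through an interaction term, fitted over both tables of a medium. Depth is unknown, so no counting intervals are given. Coding sequences were aligned with Biopython 1.88.

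A further gene of the set is not reported here. The 9 genes and the lists were chosen with earlier results of these data known. Genes named are the 9, AT1G47400, any list gene past the threshold, the 3 largest changes of each list in each root comparison, and the 5 genes most like the mean of GPAT5 and CYP86A1. Alternatives were another pseudocount, other filters, no trend, median-ratio rescaling, a replicate block and leaving out each library.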

Additional observations from a re-analysis of the deposited data

Results flagged for a closer look

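CASP1 and ESB1 were flagged because on full medium both IMA1 OE values lay above both EYFP OE values in roots and below both in rosettes. Groups did not overlap, in either direction, for 30.0% of all tested genes in roots and 31.6% in rosettes on this medium. The share of all genes with opposite directions between tissues was not counted. The log2 change in roots minus that in rosettes was 0.38 for CASP1. CASP1 was at 0.26 and 0.42 in IMA1 OE rosettes, against 1.01 and 0.47 in EYFP OE rosettes, below the level needed for a test there, so its difference between tissues is given as a value with no test. For ESB1 the difference was 0.31, with a 95% interval of -0.0024 to 0.61, and the interaction test in limma gave an adjusted p of 1, with 4 of 21161 genes past the threshold. Both genes were picked for these opposite directions, so the sizes are a description.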

How the results depend on the processing

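None of the 9 genes passed the threshold under any of the 40 alternatives, and the smallest adjusted p from limma among them was 0.324, with the replicate block in roots on Fe-deficient medium. Of their log2 changes under alternatives, 194 kept direction and call and 20 reversed. CASP1 in roots on Fe-deficient medium became 0.0079 with median-ratio rescaling. Leaving out each library in turn gave, in roots on full medium, -0.14 to 0.013 for CASP4, -0.34 to 0.95 for CASP5 and -0.039 to 0.063 for PER64. In roots on Fe-deficient medium it gave -0.084 to 0.077 for CASP1, -0.055 to 0.12 for CASP2, -0.23 to 0.097 for CASP4, -0.27 to 1.08 for CASP5, -0.10 to 0.0038 for PER64, -0.066 to 0.095 for GPAT5 and -0.23 to 0.077 for CYP86A1. In rosettes on Fe-deficient medium it gave -0.15 to 0.080 for ESB1 and -0.15 to 0.50 for CYP86A1. Changes that kept their sign but moved by over 1.5 times were those of CASP1 (0.0086 to 0.027), CASP2 (0.026 to 0.15), MYB36 (0.030 to 0.20), GPAT5 (-0.21 to -0.057) and CYP86A1 (-0.59 to -0.11) in roots on full medium. Others were ESB1 (0.025 to 0.16) and MYB36 (0.020 to 0.17) in roots on Fe-deficient medium and CYP86A1 (-0.65 to -0.0035) in rosettes on full medium. With 1 library left in a group, that library is assumed to vary like the other group.

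With the replicate block 1 of the 9 genes had an unadjusted p under 0.05 in roots on each medium, CYP86A1 on full and CASP5 on Fe-deficient medium. Of the 9 genes, 1 also did with no filter in roots on full medium and in rosettes on Fe-deficient medium, and without IMA1 OE replicate 2 in roots on full medium. Counts of all genes past the threshold moved more, and the cause was not tested. In roots on full medium the 7 became 141 with no filter, 16 with the replicate block and 0 to 4 without 1 library. In roots on Fe-deficient medium the 181 became 120 without trend, 323 with the replicate block and 55 to 80 without 1 library. In rosettes on full medium the 2 became 1 with a pseudocount of 0.1, 113 with no filter, 60 with the replicate block and 0 to 10 without 1 library. In rosettes on Fe-deficient medium the 1 became 130 with no filter and 0 to 4 without 1 library. Deviations of same-numbered libraries correlated at 0.27 and 0.24 in the root tables and 0.40 and 0.45 in the rosette tables, over 2 pairs each. Nothing in the labels ties the numbers to a batch. On full medium the highest rosette value was 12115.89 in both columns of number 1 and 11895.39 in both of number 2. The reason was not tested. With a filter on a mean of at least 5, none of the 9 genes could be fitted in rosettes.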
